A study of Mus musculus with 12 samples.

Results

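Birth and 4 weeks of age were compared in nuclei of the mouse cortex, using 8 of the 12 libraries of the series: all 4 from male pups at postnatal day 0 (P0) and all 4 from males at postnatal day 28 (P28). The members were chosen by age label alone, and no measured value was used. The nuclei of all 8 came from mice with 1 genotype, written CAG-Sun1/sfGFP +/-; NEX-Cre +/- in the labels. NEX-Cre expresses Cre recombinase from the Neurod6 locus, which is active in excitatory neurons of the cortex and in their late precursors, and CAG-Sun1/sfGFP encodes the nuclear envelope protein SUN1 joined to superfolder GFP, made once Cre has acted. Tagged nuclei were purified with antibodies (INTACT), and their polyadenylated RNA was sequenced from stranded libraries. Because Cre marks a cell for good, the tag stays on cells that no longer express Neurod6. The library labels contain WT, a common short form of wild type, at P0 and not at P28, and do not say which locus it refers to. By their labels, the libraries of P0 replicate 1 and P28 replicate 4 were merged, and the labels call the samples of an age biological replicates without naming litters. The labels of the P28 libraries other than replicate 4 share a string of digits that could be a date, which no P0 library label holds. What it stands for is not stated. No source used here says if both ages were processed at the same time, so age and any batch that follows it cannot be told apart.

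In the weeks after birth, cortical excitatory neurons finish migrating, grow axons and dendrites, form most of their synapses and take on adult firing. Growth cones, the moving tips of axons, are built from tubulins and their binding proteins and are steered by guidance receptors. Synapses add release machinery, scaffolds, receptors and ion channels, several of which exist in an early and a late form encoded by different genes. Genes driven by neuronal activity become inducible as sensory input begins. The comparison gives the net difference between both ends of this period. RNA in the nucleus is close to transcription and lacks most of the RNA stored in the cytoplasm.

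Levels are given as scaled CPM, the reads of a gene relative to all reads of its library (CPM) after the libraries were brought to 1 scale. Changes are log2 fold changes of P28 over P0 ± SE on the log2(scaled CPM + 0.5) scale, which understates changes of genes near the pseudocount of 0.5. Adjusted p is from limma over all genes tested, two-sided, with 0.05 as the threshold, and "rose" and "fell" are used for genes past it. The libraries held 13195973 to 16599217 reads at P0 and 21569262 to 31215435 at P28, and 3 reads corresponded to 0.0961 to 0.227 CPM (counting error only). Log2 levels correlated at a mean Pearson r of at least 0.984 between libraries of an age, across genes, which are not independent replicates. Principal component 1, with 91.9% of the variance, separated the ages, and component 2, with 2.75%, set P0 replicate 1 apart. Among the label checks, 4 Y-linked genes (Uty, Ddx3y, Eif2s3y and Kdm5d) had at least 14.9 scaled CPM in each of the 8 libraries. Xist, which coats the inactive X chromosome, was at 15.6, 1.65, 2.16 and 2.28 scaled CPM in P0 replicates 1 to 4. In P28 replicates 1 to 4 it was at 0.328, 0.241, 0.209 and 0.221. Xist was thus higher in every P0 library than in any P28 library, and highest in P0 replicate 1. Values that rest on P0 replicate 1 are therefore also given without it where this changed a call or moved a count by over 1.5 times. Leaving it out does not remove the difference in Xist between the ages, whose cause was not tested. Sun1, which the nuclear tag includes, had 311, 329, 282 and 389 scaled CPM in P0 replicates 1 to 4 and 456, 415, 433 and 434 in P28 replicates 1 to 4, higher at P28 without overlap (log2 fold change 0.42 ± 0.09, adjusted p = 0.00102). These reads do not separate the tag from the gene's own transcript.

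The nuclear transcriptome at 4 weeks differed from that at birth across most of its genes, with rises and falls near equal in number under the scaling used. Of 15331 genes tested, 11921 passed the test (77.8%), of which 5956 rose (38.8% of those tested) and 5965 fell (38.9%). At least 2-fold rises numbered 2785 (18.2%) and falls of that size 2793 (18.2%), and at least 8-fold rises 301 (1.96%) and falls 330 (2.15%). Among the tested genes, 465 had under 1 scaled CPM in every P28 library and 467 in every P0 library. These were tested only because of their level at the other age, so they had to differ. The counts here and the groups by size of change below include them. The libraries of the ages did not overlap in 11032 genes (72.0%), and the median log2 fold change of all genes was −0.0029. The scaling brings the median ratio between libraries to a common level, so this median and the even split largely follow from it. On the deposited values without rescaling, in which each age had been normalized alone, the median was 0.26 and the split was 7490 rises to 4523 falls. TMM scaling gave 6184 rises to 5703 falls, and upper-quartile scaling 5813 to 6103. Because of these shares, a gene group is set apart here from the transcriptome only by how far its counts and median lie from 38.8%, 38.9% and −0.0029, with no test of the group. In these bulk libraries, fewer cells of a type and less RNA per cell cannot be told apart.

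**Figure D1:**
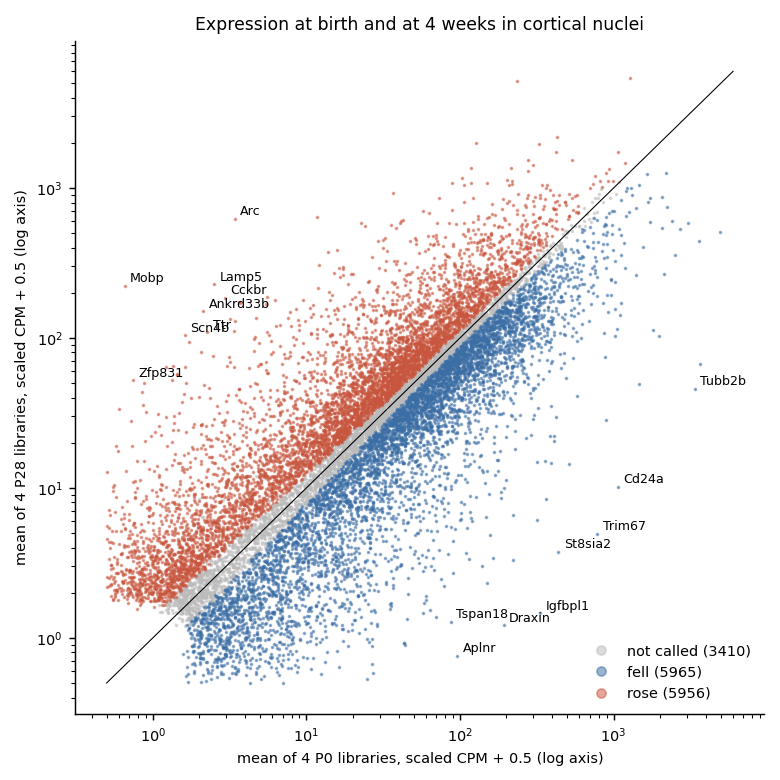
Mean level of each of the 15331 tested genes at P0 (horizontal) and P28 (vertical), in scaled CPM + 0.5 on log axes, with the line of equal levels. Points are genes, coloured by call, and the 8 largest rises and 8 largest falls that met the naming rule carry their symbols: Arc and Mobp lie far above the line and Tubb2b and Cd24a far below it.

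The largest rises included genes of neurons and of other cell types. Arc (ENSMUSG00000022602, chromosome 15, 74669081 to 74672570 on GRCm38.p6), an activity-induced gene whose protein regulates AMPA receptor uptake at synapses, was at 3.08, 2.15, 3.48 and 2.94 scaled CPM in P0 replicates 1 to 4 and at 957, 519.5, 553 and 464 in P28 replicates 1 to 4 (log2 fold change 7.47 ± 0.20, adjusted p = 1.07e-11). Every P28 library lay far above every P0 library, and replicate 1 was the highest of them. Lamp5, a lysosome-associated membrane protein relative found in neurons, was at 2.84, 1.22, 2.01 and 1.99 at P0 and 273, 217, 207 and 215 at P28 (log2 fold change 6.54 ± 0.17, adjusted p = 1.22e-12). Cckbr, the brain receptor for cholecystokinin, went from 2.72, 2.08, 3.01 and 1.99 to 186, 189, 176 and 186 (log2 fold change 5.98 ± 0.12, adjusted p = 1.71e-13). In both genes the highest P0 library stayed far below the lowest P28 library. Scn4b, a sodium channel beta subunit, rose by 6.02, and Ankrd33b and the zinc finger gene Zfp831 rose by 6.16 and 6.15 on the log2 scale. The other 2 of the 8 largest rises were Mobp, a myelin gene of oligodendrocytes (no more than 0.474 scaled CPM in any P0 library and 167 to 304 at P28), and Ttr, which the choroid plexus makes in large amounts (0.592, 0.287, 0.232 and 5.96 at P0 and 71.7, 133, 148 and 80.6 at P28). The P0 level of Ttr rests on P0 replicate 4, and without it the log2 fold change was 6.92 against 6.19 with it.

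The largest falls were mostly genes of migrating neurons and growing axons. Cd24a (ENSMUSG00000047139, chromosome 10, 43579169 to 43584265 on GRCm38.p6), a surface glycoprotein of immature neurons, was at 1053, 1086, 1067 and 1044 scaled CPM at P0 and 10.1, 9.34, 9.2 and 10.1 at P28 (log2 fold change −6.71 ± 0.07, adjusted p = 3.42e-16). Trim67, a ubiquitin ligase that binds the netrin receptor DCC, went from 729, 716, 798 and 895 to 4.02, 4.0, 4.6 and 5.09 (log2 fold change −7.32 ± 0.10, adjusted p = 6.83e-15). No P28 library came near the level of a P0 library for either gene. Igfbpl1, an insulin-like growth factor binding protein relative, was at 366, 305, 338 and 315 at P0 and 0.749, 0.861, 1.3 and 0.916 at P28 (log2 fold change −7.84 ± 0.12, adjusted p = 1.65e-14). St8sia2, which adds polysialic acid to the adhesion molecule NCAM, fell by 6.9 on the log2 scale, Draxin, a repellent for commissural axons, by 7.31, and the tetraspanin gene Tspan18 by 6.15. Aplnr, the apelin receptor, fell by 6.95 and is abundant in vessels as well as in embryonic tissue.

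The genes that filled the libraries also changed. At P0 the most abundant were Tuba1a (4950.0 scaled CPM on average), Dpysl3 (3674), Tubb5 (3610.3) and Tubb2b (3368), a set of tubulins and a growth cone protein. At P28 they were the long noncoding RNAs Meg3 (5432) and Snhg11 (5205), followed by Ndrg4 (2180.0) and the vesicular glutamate transporter gene Slc17a7 (1985). At the other end, 2140 of the 15331 genes were not called and had a 95% confidence interval within 0.5 of 0 on the log2 scale, and 370 had one within 0.25. Among the most abundant of the 370 were Dclk1, a microtubule-binding kinase related to doublecortin, at 1080.3 ± 121 and 1091 ± 21.3 scaled CPM, and Nlgn2, an adhesion protein of inhibitory synapses, at 374 ± 26.4 and 366 ± 5.09. Genes named from here on by a fixed rule are the most strongly supported members of each list, and other members are named for their function and were chosen after their values had been seen. Some named genes had under 1 scaled CPM in every library of one age and passed the filter on low values through the other age alone, so they had to differ and their calls support nothing: Mobp, Zfp831, Opalin, Neu4, Kl, Pvalb, Neurod4, Egr4, Adra1d, Hkdc1 and Trim71 passed through P28, and Draxin, Aplnr, Efna4, Eomes, Igf2bp1 and H19 through P0. Genes with 1 or more scaled CPM in only some libraries of the lower age also needed the other age to pass. Among them were Hapln4, Ttr, Scn4b, Igfbpl1, Tspan18 and Top2a, and their calls are likewise no support.

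Markers of the purified type and of other cell types were read first, because later groups move with some of them. Of 14 markers of excitatory neurons, 4 rose and 8 fell, while their summed level was higher at P28 (2136 to 2462 scaled CPM at P0 and 4282 to 4561 at P28). Slc17a7 and Camk2a, which rose by 3.97 and 3.54 on the log2 scale, made up most of that sum at P28 and little of it at P0. Neurod6, whose locus drives Cre, was at 284, 271, 279 and 274 at P0 and 49.2, 57.1, 53.8 and 52.5 at P28, a fall without overlap (log2 fold change −2.37 ± 0.07, adjusted p = 3.40e-12). Slc17a7, which loads glutamate into vesicles, was at 128, 128, 109 and 142 at P0 and 2024, 2002, 1915 and 1999.6 at P28 (log2 fold change 3.97 ± 0.08, adjusted p = 2.53e-13), and was among the most abundant transcripts at 4 weeks. Nrn1, a secreted protein that promotes neurite growth, rose from 16.1 ± 2.16 to 253 ± 22.5 (log2 fold change 3.94 ± 0.10, adjusted p = 1.28e-12).

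All 13 oligodendrocyte markers tested rose (median 3.72), and their summed level went from 110 to 121 scaled CPM at P0 to between 1968 and 3189 at P28, highest in P28 replicate 1. Mbp, a main protein of myelin, was at 38.1, 34, 35.8 and 37.1 at P0 and 1205, 901, 843 and 752 at P28 (log2 fold change 4.63 ± 0.12, adjusted p = 1.17e-12), Mag rose from 1.13 ± 0.286 to 63.7 ± 14.6 scaled CPM, and Opalin, a late marker, had no read in any P0 library and was at 14.5, 13.6, 11.8 and 9.44 at P28. Of the 11 microglia markers tested, 11 rose (median 1.20), at a summed level of 40.3 to 63.2 at P0 and 105 to 121 at P28. Their best supported members were all low: Tmem119, P2ry12 and Trem2 reached no more than 8.84, 7.02 and 4.86 scaled CPM, and Csf1r, the receptor that keeps microglia alive, no more than 22.6. Of 16 vascular and meningeal markers, 15 fell and 1 was not called (median −3.82), from a summed 1052 to 1853 scaled CPM at P0 to between 65.6 and 135 at P28, and P0 replicate 1 had the lowest P0 level for 15 of them. Kdr, the endothelial receptor for VEGF, was at 86.3, 209, 187 and 118 at P0 and 1.5, 1.55, 2.22 and 2.02 at P28 (log2 fold change −5.95 ± 0.24, adjusted p = 2.12e-10), and the pericyte genes Pdgfrb and Rgs5 and the endothelial gene Esam fell by 4.02, 4.16 and 3.37. Choroid plexus markers summed to 6.16 to 13.3 at P0 and 85.9 to 165 at P28. Ttr made up most of that sum, while Kl, Clic6 and Prlr rose to at most 6.06, 6.19 and 2.76 scaled CPM and Aqp1 fell by 0.52.

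Inhibitory neurons are not expected to carry the tag, and 12 of their 18 markers fell while 5 rose (median −1.33, summed 713 to 769 at P0 and 438 to 554 at P28). The falls included Lhx6 (log2 fold change −2.93 ± 0.10, adjusted p = 1.21e-11) and the homeobox genes Dlx1 (−3.02) and Dlx2 (−2.95), which act in interneuron precursors. Pvalb, a calcium buffer of fast-spiking interneurons, was at no more than 0.215 at P0 and at 19.6, 20.6, 19.1 and 14.9 at P28. Gad1 and Gad2, which make the transmitter GABA, changed little in size (0.33 and 0.43). Of 12 astrocyte markers, 5 rose and 6 fell, at a summed 687 to 1026 scaled CPM at P0 and 1581 to 1736 at P28: the glutamate transporter gene Slc1a2, S100b and Acsbg1 rose by 2.85, 5.37 and 1.26, and Slc1a3 fell by 1.12. Without P28 replicate 3, the astrocyte falls numbered 3. Of 8 markers of oligodendrocyte precursors, 4 rose, 2 fell and 2 were not called (median 0.15). Gpr17 and Neu4, of committed precursors, were among the rises (1.13 and 2.69). Pdgfra and Cspg4, of dividing precursors, were the falls (−1.94 and −2.55). Cspg4 is also counted among the vascular and meningeal markers, nearly all of which fell, and their part in its fall was not tested. Of 10 tested markers of Cajal-Retzius and subplate cells, early-born cells of which many are lost after birth, 6 fell, among them Reln (−2.86) and Trp73 (−2.79), and 3 rose, the subplate genes Ccn2 and Cplx3 among them (1.73 and 3.11). The part of these cell types in the gene groups that follow was not tested.

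**Figure D2:**
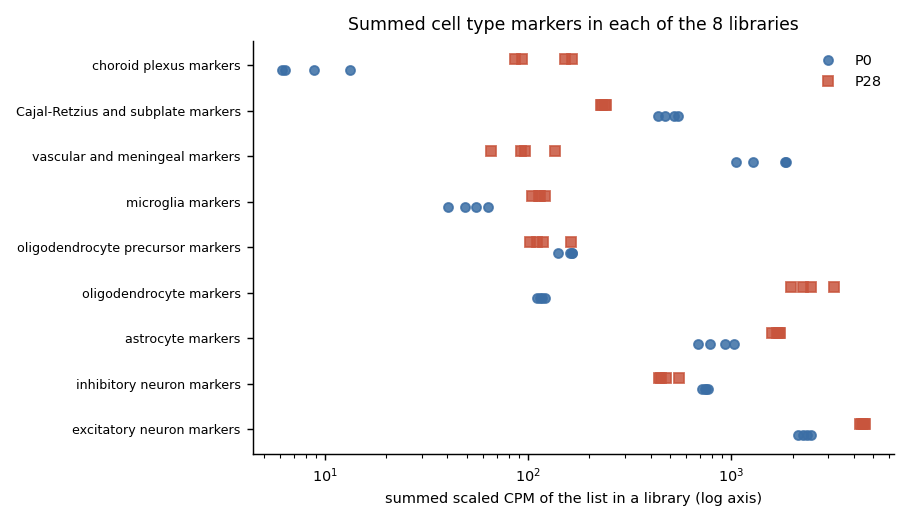
Summed scaled CPM (log axis) of 9 lists of cell type markers in each of the 8 libraries, with 1 point per library. Oligodendrocyte, microglia and choroid plexus markers are higher in all 4 P28 libraries than in any P0 library, and vascular and inhibitory neuron markers are lower in all 4.

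Genes of immature neurons and growth cones formed the group with the lowest median outside the cell type markers. Of 30 tested, 28 fell, 0 rose and 2 were not called (Dclk1 and Stmn3), with a median of −2.48, and their summed level dropped from between 33899 and 41602 scaled CPM at P0 to between 6470 and 6944 at P28. Tubb2b, a neuronal beta-tubulin, was at 3329, 3094, 3297 and 3753 in P0 replicates 1 to 4 and 50.1, 46.7, 39 and 45.2 in P28 replicates 1 to 4 (log2 fold change −6.2 ± 0.09, adjusted p = 1.16e-14). Dpysl3 and Dpysl5, members of the collapsin response mediator family that couples guidance signals to microtubules, went from 3674 ± 392 to 66.9 ± 4.85 and from 1459 ± 162 to 48.5 ± 4.73. The extent differed widely within the group. Dcx, the doublecortin gene of migrating neurons, fell by 4.28 on the log2 scale and the polysialyltransferase gene St8sia4 by 3.41, whereas Gap43, a growth cone membrane protein, fell by 1.69, Basp1 by 0.75 and Dpysl4 by 0.33. Only under quantile normalization and on the deposited values did any member count as rising (1 in each).

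**Figure D3:**
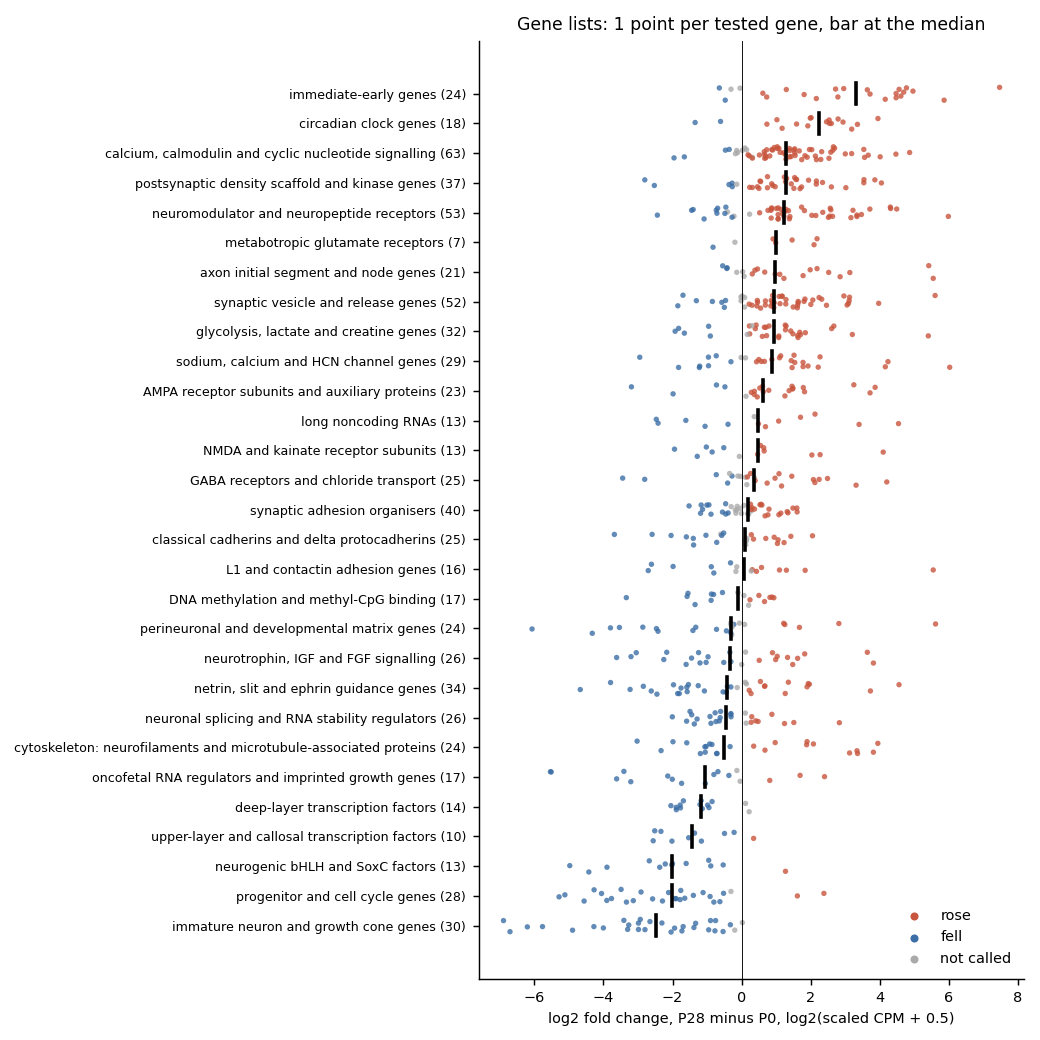
Log2 fold change of every tested member of 29 gene lists (1 point per gene, coloured by call), with a bar at each list's median and the number tested in brackets. Medians run from −2.48 for immature neuron and growth cone genes to 3.30 for immediate-early genes.

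Axon guidance genes fell more often than they rose, with several large rises. Of 34 netrin, slit and ephrin genes, 12 rose and 19 fell (median −0.43). Robo1, a slit receptor, was at 249.7, 315, 367 and 363 at P0 and 35.8, 34.3, 31.9 and 32.6 at P28 (log2 fold change −3.23 ± 0.11, adjusted p = 1.24e-11). Robo3, the divergent family member that delays slit repulsion in commissural axons, moved the other way, from 7.34, 2.8, 2.63 and 3.75 to 107, 95.8, 99.2 and 102 (log2 fold change 4.56 ± 0.23, adjusted p = 1.85e-09). Neither gene's libraries overlapped between ages. Among ligands, Ntn1 (netrin 1) fell by 2.85, the ephrins Efna4, Efnb2 and Efnb3 by 4.67, 1.54 and 1.85, and Slit3 rose by 1.89. Among receptors, Dcc fell by 2.45 and Ephb2 by 1.97, while Epha10 and Ephb6, which lack an active kinase, rose by 3.73 and 1.35. Epha4, at 254 ± 53.3 and 276 ± 9.94 scaled CPM, was not called (0.14, 95% confidence interval −0.12 to 0.40), although it passed without P0 replicate 4 (0.25). Ephb4, a receptor of vessels, fell by 3.8 beside the fall of the vascular markers, and its part in the count was not tested.

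Adhesion genes divided by member, in shares near those of all genes tested (38.8% rose and 38.9% fell). In the L1 and contactin family, 7 of 16 rose (43.8%) and 6 fell (37.5%, median 0.07). Cntn2, Chl1 and L1cam, which act in axon outgrowth and bundling, fell by 2.7, 2.61 and 1.98 on the log2 scale. Cntnap1, which anchors the myelin loops beside nodes of Ranvier, was at 2.84, 3.8, 3.09 and 3.01 at P0 and 179.9, 179, 159 and 167 at P28 (log2 fold change 5.55 ± 0.10, adjusted p = 1.00e-13), and rose while the oligodendrocyte markers rose. Of 25 cadherins and delta protocadherins, 9 rose (36%) and 10 fell (40%, median 0.11), although 14 rose on the deposited values. Cdh4 and Cdh2, the R- and N-cadherins, fell by 2.59 and 2.04, the latter from 245, 357, 356 and 381 at P0 to 85.2, 80.9, 75.9 and 77 at P28. Cdh22 rose by 2.05, Cdh13 and the X-linked Pcdh19 fell by 1.4 and 1.6, and Cdh11, Pcdh7, Pcdh9 and Pcdh10 were not called (0.11, 0.10, 0.14 and 0.12).

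Growth factor genes were also mixed, with a larger share of falls. Of 26 tested, 10 rose (38.5%, near the 38.8% of all genes) and 14 fell (53.8% against 38.9%, median −0.33). Bdnf, a neurotrophin released by active neurons, was at 3.2, 3.59, 2.24 and 3.46 at P0 and 62.1, 40.9, 37.4 and 39.8 at P28 (log2 fold change 3.64 ± 0.18, adjusted p = 3.70e-10), and P28 replicate 1 was the highest. Its receptor gene Ntrk2 was not called, at 499.6 ± 77.9 and 499 ± 72.9 scaled CPM (log2 fold change 0.0011, 95% confidence interval −0.26 to 0.26). The low-affinity receptor gene Ngfr fell by 3.2 and the neurotrophin gene Ntf3 by 2.17. Igf1r and Insr, the receptors for insulin-like growth factor 1 and insulin, fell by 1.25 and 1.21, and Igfbp2, a binding protein of these ligands, by 3.05. Igfbp6 rose from 1.33 ± 0.304 to 25.2 ± 4.06 (log2 fold change 3.82 ± 0.17, adjusted p = 1.36e-10).

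Cytoskeletal genes exchanged members. Of 24 tested, 11 rose and 13 fell (median −0.52). Nefl, Nefm and Nefh, the 3 neurofilament subunits that widen axons, rose by 1.89, 1.88 and 3.12 on the log2 scale, and Ina, the early expressed partner alpha-internexin, fell by 0.93. Tuba4a, an alpha-tubulin, was at 25.9, 26.5, 23.7 and 38.5 at P0 and 458, 453, 427 and 424 at P28 (log2 fold change 3.94 ± 0.12, adjusted p = 5.09e-12), while Tubb5 went from 3465, 3292, 3591 and 4093 to 464, 464, 406 and 433 (log2 fold change −3.03 ± 0.09, adjusted p = 2.31e-12). The ages did not overlap for either tubulin, and they moved in opposite directions. Map7 rose by 3.36 and Tppp, a tubulin-polymerizing protein with high levels in oligodendrocytes, by 3.82, the latter from 38 ± 1.34 to 541 ± 24.4 scaled CPM. Mapt, the tau gene, fell by 2.33, and Map2, a dendritic microtubule protein, by 0.86.

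Transcription factors that set up the identity of cortical layers were nearly all lower at 4 weeks. Of 10 upper-layer and callosal factors, 9 fell and 1 rose (median −1.45), and of 14 deep-layer factors, 12 fell and 0 rose (median −1.19). Pou3f2, a POU factor of upper-layer neurons, was at 112, 149, 141 and 139 at P0 and 25.1, 22.6, 19.3 and 22.9 at P28 (log2 fold change −2.56 ± 0.11, adjusted p = 7.62e-11). Bcl11b (CTIP2), which directs neurons projecting below the cortex, was at 215, 235, 258 and 277 and 68.4, 75.4, 70.2 and 70.5 (log2 fold change −1.78 ± 0.08, adjusted p = 3.01e-10). Both remained well above the floor of 3 reads at P28, and neither overlapped between ages. The related gene Pou3f3 fell by 2.52, Bhlhe22 by 2.34, and Sox5, Nfib and Bcl11a by 1.89, 1.9 and 1.77. The exceptions were Rorb, a layer 4 factor, which rose by 0.35, and Fezf2 and Etv1 of layer 5, which were not called (0.11, 95% confidence interval −0.14 to 0.36, and 0.22, −0.02 to 0.46). Etv1 passed as a rise under 4 alternatives (library total, TMM, edgeR and without P0 replicate 3, the last at 0.28), and both did on the deposited values.

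Neurogenic factors fell further. Of 13 tested bHLH, SoxC and related factors, 12 fell and 1 rose (median −2.02). Sox11, a SoxC factor of newborn neurons, was at 944, 898, 858 and 882 at P0 and 26.9, 26.5, 26.6 and 32.1 at P28 (log2 fold change −4.98 ± 0.08, adjusted p = 1.65e-14). Eomes (TBR2), which marks intermediate progenitors, went from 16.5 ± 3.7 to 0.642 ± 0.256 scaled CPM, and Insm1 and Sox12 fell by 2.67 and 2.21. Neurod4 rose from a low level, 0.392 ± 0.155 to 1.66 ± 0.394 (1.27). Cell division genes moved with them: 25 of the 28 genes of progenitors and cell division fell and 2 rose (median −2.02, summed 916 to 1186 scaled CPM at P0 and 268 to 307 at P28). Top2a, a topoisomerase of dividing cells, was at 59.4, 63.6, 63.9 and 40.5 at P0 and 0.749, 0.758, 1.17 and 1.17 at P28 (log2 fold change −5.29 ± 0.18, adjusted p = 9.82e-12), and the replication helicase genes Mcm6 and Mcm7 fell by 2.91 and 2.29 and the nucleotide reductase gene Rrm2 by 3.77. Mki67 went from 67.5 ± 15.1 to 2.35 ± 0.506, and the radial glia genes Nes and Vim, also made by vessels, fell by 5.12 and 3.9. Ccne1 rose by 2.38, from 4.25 ± 1.02 to 23.9 ± 0.913 scaled CPM.

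Several proteins of the maturing neuron are supplied by an early and a late gene, and 12 such pairs were followed by the log2 ratio of the late to the early gene in each library. For 11 of the 12 the ratio was higher in all 4 P28 libraries than in any P0 library, where 72.0% of single genes did not overlap between ages, and the share among other gene ratios was not computed. Grin2a over Grin2b, the NMDA receptor subunits whose exchange shortens synaptic currents, had log2 ratios of −4.63, −5.47, −5.12 and −5.1 in P0 replicates 1 to 4 and −0.84, −0.81, −0.90 and −1.1 in P28 replicates 1 to 4, a change of 4.17. Only the late gene moved past the threshold: Grin2a was at 17.3, 14, 19.3 and 16.9 at P0 and 366, 293, 283 and 250.4 at P28 (log2 fold change 4.1 ± 0.12, adjusted p = 2.99e-12), and Grin2b was at 440.0, 642, 687 and 595 and 657, 516, 529 and 536 and was not called (−0.07, 95% confidence interval −0.34 to 0.21). Without P0 replicate 1, Grin2b passed the test at −0.21 on the log2 scale (adjusted p = 0.0489, 0.0489 to 0.997 over the alternatives).

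The chloride transporters were alike in this respect. Slc12a5 (KCC2), the chloride exporter that makes GABA inhibitory, was at 94.7, 115, 117 and 126 at P0 and 605, 518, 493 and 528 at P28 (log2 fold change 2.24 ± 0.10, adjusted p = 9.98e-11), while Slc12a2 (NKCC1), the importer, was not called (0.15, 95% confidence interval −0.10 to 0.40). The log2 ratio of exporter to importer changed by 2.09. Gabra2 and Gabra3, early alpha subunits of GABA-A receptors, were at 81.9, 62, 51.2 and 40.9 and 93.5, 103, 91.7 and 124 at P0 and 70.1, 64.5, 80.2 and 82.9 and 109.6, 117, 109.8 and 106 at P28, and neither was called (0.37 and 0.11). Gabra2 rose past the threshold in 5 alternatives, among them the fits without P0 replicate 1 (0.54) and without P28 replicate 2 (0.44), and Gabra3 without P0 replicate 4 (0.19).

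In most other pairs both genes moved. Slc17a7 over Slc17a6, the vesicular glutamate transporters, changed by 4.54 in log2 ratio, with Slc17a6 falling by 0.57. Scn8a rose by 1.78 and Scn3a, an early sodium channel, fell by 0.96. Map1a and Map1b, microtubule-binding proteins of mature dendrites and of growing axons, were at log2 ratios of −4.0, −4.08, −4.04 and −3.92 at P0 and 0.04, 0.16, −0.0046 and 0.02 at P28, which means near equal reads at 4 weeks. Rbfox3 over Dcx changed by 5.79. Tubb4a over Tubb2b had the widest change, 6.88, which came mostly from the early gene (Tubb4a rose by 0.68), and Tnr over Tnc changed by 6.0 with Tnr itself not called (−0.06).

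Both genes rose in 3 pairs. Camk2a over Camk2b changed by 3.01, with the beta subunit gene rising by 0.53, and Nefh over Nefm by 1.24. Dlg4 (PSD-95) over Dlg3 (SAP102), scaffolds that exchange at the protein level in maturing synapses, did not shift: the log2 ratios were 1.07, 1.3, 1.16 and 1.42 at P0 and 1.34, 1.23, 1.15 and 1.24 at P28, and both genes rose by 0.75. Bcan over Ncan, matrix proteoglycans, changed by 1.19 because Ncan fell by 1.41. Bcan itself fell slightly (−0.23) and lost its call in 7 alternatives, among them each fit without P0 replicate 4, P28 replicate 2 or P28 replicate 3 (−0.20, −0.21 and −0.17), and it turned to 0.047 on the deposited values.

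**Figure D4:**
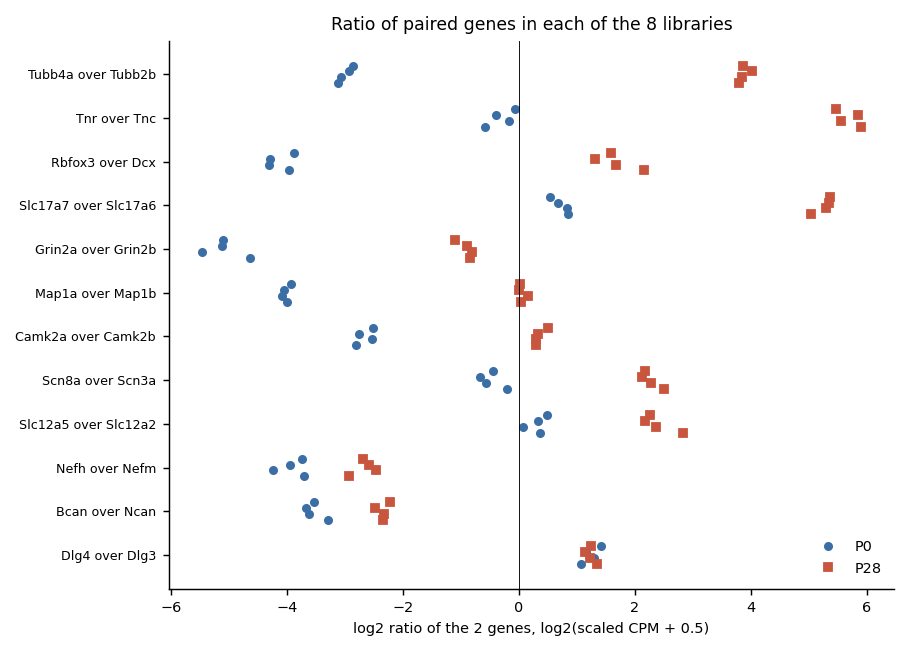
Log2 ratio of the late to the early gene of 12 pairs in each of the 8 libraries (P0 circles, P28 squares), ordered by the size of the change. The ages are apart in 11 pairs, from Bcan over Ncan to Tubb4a over Tubb2b, and overlap for Dlg4 over Dlg3.

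Presynaptic genes rose as a group. Of 52 synaptic vesicle and release genes, 40 rose and 7 fell (median 0.94), and their summed level went from between 7776 and 9331 scaled CPM to between 19267 and 20750. Snap25, a SNARE protein of vesicle fusion, was at 292, 282, 253 and 286 at P0 and 1593, 1556, 1553 and 1415 at P28 (log2 fold change 2.46 ± 0.08, adjusted p = 4.58e-12). Slc30a3, which loads zinc into glutamate vesicles, was at 4.32, 3.01, 2.86 and 2.43 and 181, 172, 159 and 184 (log2 fold change 5.6 ± 0.14, adjusted p = 9.17e-13), the largest change in the list. The release sensor gene Syt1 rose by 2.06 and the synapsins Syn1 and Syn2 by 1.64 and 2.24, whereas Syn3 fell by 1.85. Syt17 rose by 2.96, Vamp1 by 3.12, and the active zone genes Bsn and Unc13a by 1.28 and 1.64. Syt4 (−1.31) and the active zone scaffold gene Erc1 (−1.7) were among the falls.

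Postsynaptic scaffolds and kinases showed a similar share, 31 of 37 rising and 5 falling (median 1.27). Camk2a, the alpha subunit of the calcium and calmodulin kinase of the spine, was at 111, 115, 99.9 and 140.4 at P0 and 1370.0, 1297, 1282 and 1474 at P28 (log2 fold change 3.54 ± 0.10, adjusted p = 2.02e-12). Ddn (dendrin), Synpo (synaptopodin, of the spine apparatus) and Lzts3 rose by 3.86, 4.05 and 3.02 on the log2 scale, and Nrgn (neurogranin, a calmodulin reservoir) by 3.54. Among scaffolds, Shank3 and Dlgap2 rose by 0.87 and 2.17. Homer3 fell from 21, 20.01, 22.7 and 16.2 to 1.97, 2.72, 1.88 and 3.32 (log2 fold change −2.8 ± 0.18, adjusted p = 5.22e-09) while Homer1 rose by 2.16. The adhesion molecules that join both sides of a synapse differed from the scaffolds in their counts: 17 of 40 rose, 11 fell and 12 were not called (median 0.19). Nrxn3 rose by 1.32, Slitrk3 by 1.49 and Il1rapl1 by 1.6, Cbln1 and the latrophilin gene Adgrl2 fell by 1.52 and 1.19, and Nlgn2 was not called (−0.03, 95% confidence interval −0.18 to 0.12).

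Ionotropic glutamate receptor genes rose more often than they fell, mainly in the AMPA receptor list. Of 13 tested NMDA and kainate genes, 7 rose (53.8%, against 38.8% of all genes) and 5 fell (38.5%, near the 38.9% of all genes). Their median was 0.46, at a summed 1756 to 2007 scaled CPM at P0 and 2155 to 2384 at P28. Grin1, the obligatory NMDA subunit, was at 67.8, 79.2, 84.5 and 108 at P0 and 376, 337, 322 and 343 at P28 (log2 fold change 2.03 ± 0.12, adjusted p = 1.82e-09). Grin3a and Grin2d, early subunits, fell by 1.29 and 1.02, and Neto2, a kainate receptor partner, by 1.94. Among AMPA receptor subunits and auxiliary proteins 18 of 23 rose and 4 fell (median 0.63, summed 3203 to 3599 scaled CPM at P0 and 6094 to 6423 at P28). Gria1, Gria2, Gria3 and Gria4, the pore subunits, rose by 0.60, 0.28, 1.79 and 1.37, and Gria2 lost its call without both merged libraries and with all 12 libraries in the fit (adjusted p up to 0.0539). The auxiliary subunits went in opposite directions: Cacng3 was at 15.2, 12.9, 14.9 and 19.6 at P0 and 169, 145, 136 and 158 at P28 (log2 fold change 3.25 ± 0.12, adjusted p = 2.18e-11), and Cacng4 at 205, 178, 203 and 211 and 24.3, 21.1, 18.3 and 22.1 (log2 fold change −3.19 ± 0.10, adjusted p = 3.78e-12). Nptx1, a secreted pentraxin that clusters AMPA receptors, rose from 41 ± 5.51 to 601 ± 48.9 scaled CPM. Of 7 metabotropic receptor genes, 5 rose, with Grm4, Grm8, Grm7 and Grm2 at 2.1, 2.18, 1.46 and 0.99, Grm3, also an astrocyte gene, fell by 0.83, and Grm5 was not called (−0.20). Without P0 replicate 1, the lowest P0 library for all 7, Grm5 passed as a fall as well (−0.32).

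Of 25 tested GABA receptor and chloride transport genes, 14 rose and 5 fell (median 0.37). Gabrd, the delta subunit of receptors outside the synapse, was at 6.69, 5.52, 5.33 and 7.28 at P0 and 130.1, 119, 118 and 121 at P28 (log2 fold change 4.2 ± 0.11, adjusted p = 1.22e-12), and Gabra4, its frequent partner, rose by 2.49. Kctd12, an auxiliary subunit of GABA-B receptors, fell by 2.81 while Kctd16 rose by 2.08. Slc12a7, a potassium and chloride exporter, fell from 21.6, 26.8, 28.7 and 21.5 to 2.71, 1.48, 1.5 and 1.64 (log2 fold change −3.45 ± 0.18, adjusted p = 7.33e-10). The number of falls was 3 under TMM scaling, on the deposited values and without either P0 replicate 4 or P28 replicate 4.

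Ion channels of firing and of the axon rose more often than they fell. Of 29 sodium, calcium and HCN channel genes, 19 rose and 8 fell (median 0.87). The sodium channel beta subunits Scn2b and Scn4b rose by 4.24 and 6.02, the last from 1.3, 1.36, 1.0 and 0.809 to 98.7, 108, 108 and 101 scaled CPM, whereas Scn3b fell by 1.21. Among alpha subunits, Scn1a rose by 2.27 and Scn2a by 0.87. Hcn2, of the channels that carry the current activated by hyperpolarization, rose by 1.52, and Hcn4 and Hcn3 fell by 2.95 and 0.74. Cacnb4, a calcium channel beta subunit, rose by 1.92. At the axon initial segment and node, 15 of 21 genes rose and 3 fell (median 0.97). Kcna2, a potassium channel beside the node, was at 26.8, 30.6, 33.2 and 37.5 at P0 and 297, 279, 283 and 272 at P28 (log2 fold change 3.13 ± 0.09, adjusted p = 4.17e-12). Lgi3 rose from 2.66 ± 0.518 to 133 ± 3.8 (log2 fold change 5.42 ± 0.12, adjusted p = 4.65e-13), while Ank3, the master scaffold of the initial segment, fell by 0.55 and Trim46 was not called (0.03). Oligodendrocyte markers rose beside this list, and their part in it was not tested.

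Receptors for neuromodulators and neuropeptides rose more often than they fell. Of 53 tested, 40 rose and 10 fell (median 1.22). Chrm4 and Chrm1, muscarinic acetylcholine receptors, went from 1.83 ± 0.30 to 45.7 ± 4.16 and from 51.7 ± 6.39 to 296 ± 13.8 scaled CPM. Adra1d, a noradrenaline receptor, was at 0.474, 0.287, 0.618 and 0.515 at P0 and 27.9, 21.7, 18.8 and 17.8 at P28. Serotonin receptor genes Htr2a, Htr5a and Htr1a rose by 2.56, 2.15 and 1.36, the dopamine receptor gene Drd1 by 1.06 and the histamine receptor gene Hrh3 by 3.34. The falls held Ntsr1, a neurotensin receptor and marker of layer 6 neurons, from 109, 109, 116 and 106 to 14.8, 20.3, 24.3 and 21.3 (log2 fold change −2.44 ± 0.12, adjusted p = 5.79e-10). Cnr1, the cannabinoid receptor gene, fell by 1.4, and the nicotinic genes Chrna3, Chrna5, Chrna7 and Chrnb2 all fell, by 1.09, 0.73, 0.72 and 0.46, although Chrna7 lost its call with all 12 libraries in the fit (adjusted p = 0.101). Chrna4, the remaining nicotinic gene of the list, rose by 0.85.

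Calcium and cyclic nucleotide signalling downstream of these receptors had the smallest share of falls of the 3 largest lists: 52 of 63 rose and 4 fell (median 1.28). Hpcal4, a neuronal calcium sensor, was at 66.1, 70.2, 79.7 and 74 at P0 and 878, 857, 819.7 and 877 at P28 (log2 fold change 3.56 ± 0.07, adjusted p = 2.53e-13). Rasgrp1, a Ras activator that senses diacylglycerol, went from 34.8 ± 4.01 to 566 ± 24.8, Rasal1, a Ras inhibitor, from 21.6 ± 1.86 to 201 ± 15, and Rgs4, which shortens G protein signals, from 88.8 ± 5.42 to 715 ± 54.3 scaled CPM. Itpka, Rgs14 and Rasgrf1 rose by 4.86, 4.47 and 3.67. The calmodulin genes Calm2 and Calm3, abundant at both ages, rose by 0.52 and 0.67. Prkar2b, a regulatory subunit of protein kinase A, fell by 1.96, from 254, 313, 302 and 309 to 75.8, 77.2, 78.4 and 69.5, and Prkar1b rose by 0.82.

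Activity-induced genes had the highest median of the lists outside the cell type markers. Immediate-early genes are transcribed within minutes of calcium entry, and their promoters and enhancers are bound by CREB (at the cyclic AMP response element, CRE) and by SRF (at the CArG box). Circadian clock genes are driven in part by the CLOCK and BMAL1 pair at E-boxes. To let these elements be seen in place, promoter windows (the 250 bases before the first listed RefSeq start, RefSeq sequences, GRCm38.p6, 5′ to 3′ on the gene's strand) are printed for 3 genes of each list that hold one. The first listed start is not always the most upstream. For Trim67, Lamp5 and Draxin, which are counted among all windows below, the window lay within the gene. Capitals mark a match on either strand to TGACGTCA (CRE), to the CArG box or to CACGTG (E-box).

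Ciart (chr3:95882229-95882478, minus strand): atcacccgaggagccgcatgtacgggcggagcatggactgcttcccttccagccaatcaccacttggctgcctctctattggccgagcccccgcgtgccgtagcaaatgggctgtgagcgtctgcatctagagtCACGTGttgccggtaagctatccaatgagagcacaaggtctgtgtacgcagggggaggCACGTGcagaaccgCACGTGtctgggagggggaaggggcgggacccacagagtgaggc
Bhlhe41 (chr6:145865421-145865670, minus strand): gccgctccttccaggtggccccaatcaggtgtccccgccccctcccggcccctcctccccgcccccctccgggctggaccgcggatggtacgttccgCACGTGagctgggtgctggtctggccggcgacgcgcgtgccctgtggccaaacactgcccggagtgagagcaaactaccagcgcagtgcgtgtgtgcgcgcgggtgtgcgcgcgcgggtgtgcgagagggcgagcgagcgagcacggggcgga
Cry1 (chr10:85185055-85185304, minus strand): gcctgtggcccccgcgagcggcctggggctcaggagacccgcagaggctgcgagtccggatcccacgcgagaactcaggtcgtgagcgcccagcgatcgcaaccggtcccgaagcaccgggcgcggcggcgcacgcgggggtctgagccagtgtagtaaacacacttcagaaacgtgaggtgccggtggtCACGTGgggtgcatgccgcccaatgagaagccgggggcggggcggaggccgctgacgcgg
Btg2 (chr1:134079156-134079405, minus strand): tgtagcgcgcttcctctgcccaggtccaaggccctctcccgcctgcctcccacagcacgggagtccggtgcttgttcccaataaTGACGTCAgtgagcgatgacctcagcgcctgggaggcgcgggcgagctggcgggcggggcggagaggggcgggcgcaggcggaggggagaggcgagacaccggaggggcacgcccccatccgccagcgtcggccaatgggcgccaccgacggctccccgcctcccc
Dusp1 (chr17:26508473-26508722, minus strand): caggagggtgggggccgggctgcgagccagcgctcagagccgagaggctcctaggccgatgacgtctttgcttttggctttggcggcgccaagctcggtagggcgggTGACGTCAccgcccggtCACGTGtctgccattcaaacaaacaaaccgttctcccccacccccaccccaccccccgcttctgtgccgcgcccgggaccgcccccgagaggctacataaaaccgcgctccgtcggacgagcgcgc
Dusp5 (chr19:53528895-53529144, plus strand): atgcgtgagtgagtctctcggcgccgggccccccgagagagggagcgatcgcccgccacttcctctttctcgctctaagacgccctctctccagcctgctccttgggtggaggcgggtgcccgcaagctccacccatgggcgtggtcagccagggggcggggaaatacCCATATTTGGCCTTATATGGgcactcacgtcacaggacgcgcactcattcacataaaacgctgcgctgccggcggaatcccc

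Ciart held 3 E-boxes, Bhlhe41 and Cry1 held 1 each, Btg2 held a CRE, Dusp1 a CRE and an E-box, and Dusp5 a pair of adjoining CArG boxes. Windows were found for 11380 of the 15331 genes tested. The E-box CACGTG was in 5 of the 16 clock gene windows (31.2%) and in 8.37% of all windows of this length, and it was in 4 of the 19 immediate-early windows (21.1%) as well. The CRE was in 2 of 19 immediate-early windows and in 2.73% of all, and the CArG box in 1 of 19 and in 1.17% of all. Elements outside the window were not searched. The median GC content was 65.4% in the clock gene windows, 66.4% in the immediate-early windows and 60% in all windows. Its part in these shares was not tested.

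Of 24 immediate-early genes, 20 rose and 2 fell (median 3.30), and 18 rose at least 2-fold. Nr4a1, an orphan nuclear receptor gene, was at 17.8, 15.1, 12.6 and 15.4 at P0 and 520.2, 329, 352 and 349.9 at P28 (log2 fold change 4.61 ± 0.14, adjusted p = 5.59e-12). Junb, a partner of FOS, was at 3.85, 4.45, 4.33 and 7.06 and 227, 182, 129 and 137 (log2 fold change 4.96 ± 0.20, adjusted p = 1.30e-10), and Egr4, a zinc finger factor, at 0.237, 0.287, 0.155 and 0.809 and 70.6, 49.3, 36.8 and 42.5. P28 replicate 1 was the highest P28 library for each of these genes and for all 20 that rose, with Egr1, Fos and Npas4 at 722, 135 and 151 in that library and at 513 to 559, 79.8 to 89.7 and 75 to 99.5 in the other 3. Without it the same list gave 19 rises and 3 falls, and Arc differed by 7.25 on the log2 scale. The genes whose windows are shown rose by 2.72 (Btg2), 1.81 (Dusp1) and 2.79 (Dusp5). The family of Nr4a1 divided, since Nr4a2 and Nr4a3 fell by 0.65 and 0.48. Homer1, whose short form is induced by activity, rose by 2.16, and the counts do not separate its forms. Rheb was not called (−0.05), nor was Fosl2 (−0.31), which fell without P28 replicate 1 (−0.52, adjusted p = 0.00251, up to 0.876 over the alternatives).

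Of 18 circadian clock genes, 16 rose and 2 fell (median 2.23), and 15 rose at least 2-fold. Per3, a repressor in the feedback loop, was at 7.64, 7.82, 8.58 and 5.59 at P0 and 117, 109.6, 120.2 and 135 at P28 (log2 fold change 3.95 ± 0.12, adjusted p = 5.64e-12). Nr1d2, a nuclear receptor that represses Bmal1, was at 25.8, 27.2, 28.6 and 28.8 and 141, 162, 178 and 175 (log2 fold change 2.54 ± 0.09, adjusted p = 1.45e-11), and Hlf, an output factor, at 16.9, 21.7, 21.6 and 22.4 and 173, 154, 154 and 160.2 (log2 fold change 2.94 ± 0.10, adjusted p = 8.10e-12). No library of one age reached a level of the other in these genes. The repressor genes Per1 and Per2 rose by 1.92 and 2.46 and the output genes Dbp and Tef by 3.35 and 1.99, while the activator genes Clock and Bmal1 rose by 1.02 and 0.73. Ciart and Bhlhe41, with E-boxes shown above, rose by 2.6 and 3.19, and Bhlhe40 by 2.79. Cry1, which also holds an E-box, fell by 0.61 while Cry2 rose by 1.17, and Nfil3, which opposes Dbp at its targets, fell by 1.35. P28 replicate 4 was the highest P28 library for 11 of the 16 that rose. The hour of collection is not in the labels and was not tested.

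**Figure D5:**
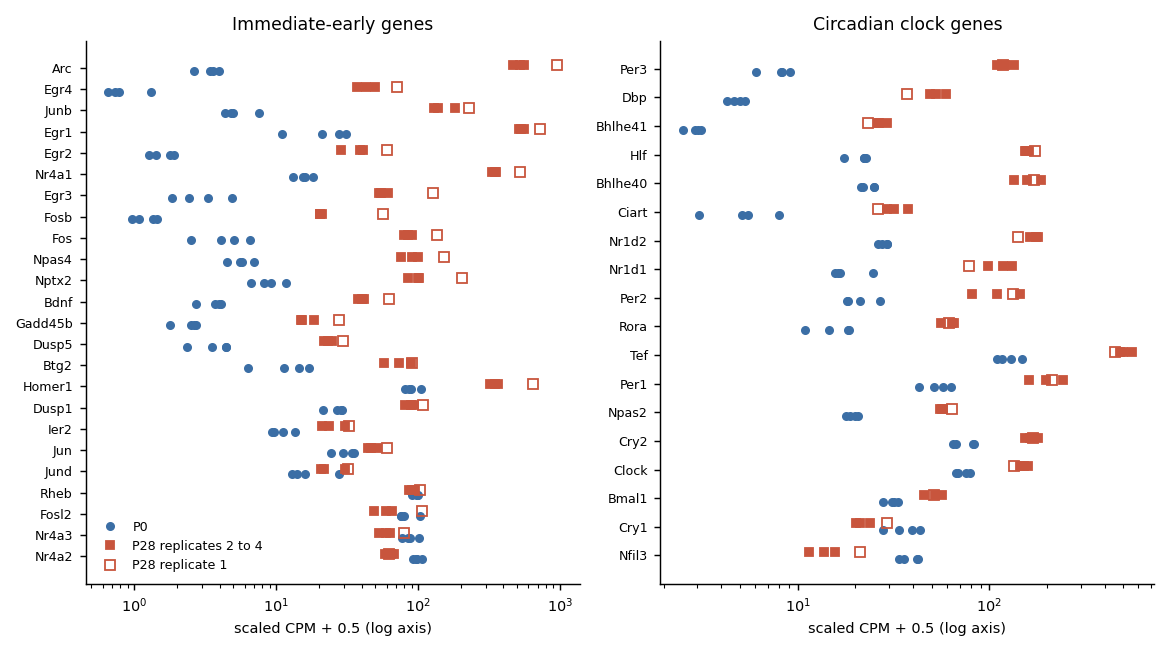
Level of each immediate-early gene (left) and clock gene (right) in each of the 8 libraries, in scaled CPM + 0.5 on log axes. The key in the left panel holds for both. P28 replicate 1, drawn as an open square, is the highest P28 library for all 20 immediate-early genes that rose, and Nr4a2 and Nfil3 lie at the bottom of their panels as falls.

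RNA-binding regulators of neuronal splicing fell more often than they rose, 16 against 8 of 26 tested (median −0.46). Mbnl2, which promotes adult splice forms, was at 20.8, 30.1, 33 and 28.9 at P0 and 201, 204, 201 and 197 at P28 (log2 fold change 2.83 ± 0.12, adjusted p = 7.37e-11). Rbfox3 (NeuN) rose by 1.51, whereas Rbfox2 fell by 0.89 and Rbfox1 rose by 0.28. Nova2 and Nova1, paralogs that bind the same motif, moved apart, at −2.01 and 0.88. Khdrbs1 (SAM68), Elavl3, Ptbp2 and Srrm4, regulators in young neurons, fell by 1.59, 1.49, 1.29 and 1.37. Among 17 tested oncofetal and imprinted growth genes, 3 rose and 12 fell (median −1.05). Nnat, the imprinted neuronatin gene, was at 1032, 1034, 986 and 1163 at P0 and 117, 112, 104 and 120.0 at P28 (log2 fold change −3.21 ± 0.08, adjusted p = 8.37e-13). Igf2bp1, an RNA-binding protein of fetal tissue, was at 27.9, 26.8, 26 and 17.1 at P0 and at no more than 0.0468 in any P28 library, under the floor of 3 reads. H19, an imprinted noncoding RNA, was at 22.2, 33, 32.1 and 19.7 at P0 and no more than 0.126 at P28, and Cdkn1c fell by 3.41, both beside the fall in vascular markers, whose part was not tested. Peg3, another imprinted gene, rose by 1.69, and Trim71 rose from 0.364 ± 0.29 to 3.9 ± 0.577 scaled CPM.

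Long noncoding RNAs were tested for 13 genes, of which 7 rose and 5 fell (median 0.49). Snhg11 was at 350.2, 246, 149 and 191 at P0 and 5453, 4709, 5532 and 5125 at P28 (log2 fold change 4.54 ± 0.20, adjusted p = 1.02e-09), and Meg3, of an imprinted region expressed from the maternal chromosome, at 1749.5, 1440.4, 876 and 1078 and 5538, 4820.2, 5405 and 5965 (log2 fold change 2.12 ± 0.17, adjusted p = 1.92e-07). Mirg, from the same region, rose by 3.4, and the speckle RNA Malat1 by 1.71. Dlx6os1, an interneuron RNA antisense to Dlx6, fell by 2.47 beside Dlx1 and Dlx2. No source used here states the counted strand, so reads of Dlx6os1 and Dlx6 may not be separated. Genes of DNA methylation and its readers numbered 17, with 6 rising and 8 falling (median −0.11). Dnmt1 and Uhrf1, which copy methylation after replication, went from 193, 214, 243 and 227 to 93, 81.2, 82.9 and 85.3 (log2 fold change −1.35 ± 0.08, adjusted p = 4.32e-09) and from 16.3 ± 3.52 to 1.14 ± 0.239 scaled CPM. Dnmt3a, which sets methylation in postnatal neurons, rose by 0.24 but lost its call in 6 alternatives, among them the fits without P0 replicate 1, P0 replicate 2 or P28 replicate 4 (0.18, 0.23 and 0.17). Tet1 fell by 1.55 and Mbd4 rose by 0.93.

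Extracellular matrix genes fell more often than they rose. Of 24 tested, 13 fell and 5 rose (median −0.31). Tnc (tenascin C) was at 206, 229.8, 251 and 199 at P0 and 3.09, 3.0, 2.05 and 3.19 at P28 (log2 fold change −6.07 ± 0.13, adjusted p = 2.54e-13), and Vcan (versican) at 399.8, 476, 374 and 394 and 18, 18.5, 20.5 and 23.3 (log2 fold change −4.32 ± 0.10, adjusted p = 5.46e-13). Ptprz1 and Reln fell by 3.8 and 2.86. Hapln4, a link protein of perineuronal nets, was at 0.888, 0.646, 0.541 and 1.32 at P0 and 75.7, 69.3, 54.6 and 58.8 at P28 (log2 fold change 5.61 ± 0.18, adjusted p = 7.57e-12), and Acan, the main proteoglycan of these nets, stood at 1.88 ± 0.706 and 1.48 ± 0.82 scaled CPM and was not called (−0.31, 95% confidence interval −0.89 to 0.27), though it fell without P28 replicate 1 (−0.56). Tnc, Vcan and Ptprz1 are also genes of radial glia and glial precursors, and the progenitor genes above fell alongside.

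Genes of glycolysis, lactate and creatine metabolism rose in 25 of 32 cases and fell in 5 (median 0.93). Eno2, the neuronal enolase, was at 121, 107, 106 and 134 at P0 and 1143, 1092, 1044 and 1037 at P28 (log2 fold change 3.21 ± 0.09, adjusted p = 1.52e-12), and Aldoa at 186, 213, 213 and 245 and 1461, 1410.5, 1289 and 1288 (log2 fold change 2.67 ± 0.09, adjusted p = 1.01e-11). The neuronal glucose transporter gene Slc2a3 rose by 1.68 and the mitochondrial creatine kinase gene Ckmt1 by 2.61. Hkdc1, a hexokinase relative, was at no more than 0.735 at P0 and at 33.3, 31.6, 34.7 and 41.4 at P28. The falls were Slc2a1 and Slc16a1, transporters of glucose and lactate that are high in brain vessels (−1.66 and −1.93), Pfkfb3 (−1.82), Gatm (−0.96) and Hk2 (−0.91). Slc16a1 was lowest among P0 libraries in replicate 1 (51.7, 138, 158 and 111), as were 15 of 16 vascular markers, and the part of vessels was not tested.

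The transcript of the histone variant that the series is named for did not pass the test. H2bc21, which encodes H2BE, was at 9.83, 11.1, 10.7 and 7.5 scaled CPM in P0 replicates 1 to 4 and 10.01, 11.4, 8.44 and 9.54 in P28 replicates 1 to 4, with overlapping ages (0.01 ± 0.15, 95% confidence interval −0.31 to 0.34, adjusted p = 0.934). An exact two-sided permutation test over the 8 libraries gave p = 0.914 from 70 arrangements, of which the smallest possible p is 0.0286. These levels rest on 102 to 331 reads in a library, and the change passed the threshold in 0 of the 27 alternatives.

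Promoter composition and gene length, which the grouping by age did not use, were described at different thresholds and are not compared in size. Promoters are given for changes of at least 8-fold, and length for all genes past the threshold. Among the 11380 promoter windows, the median ratio of observed to expected CpG was 0.718, against 0.513 in the 211 windows of genes that rose at least 8-fold and 0.617 in the 230 of genes that fell at least 8-fold. The GC box GGGCGG was in 58.8% of all windows, in 43.1% of those of the largest rises and in 66.1% of those of the largest falls. Over gene length, the share of genes that rose was 40.4% under 10 kb and 40.0% above 300 kb, and the share that fell was 35.6% and 42.3%. These are descriptions over genes, with no test.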

How the data were processed

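The deposited unit is signal, here size-factor normalized reads: the authors scaled every library by 1 factor, age by age, and per the submitters' processing notes used DESeq2 and the mouse build mm10. Aligner, counter, strand, annotation and filters are not given here. Each column was divided by its total over the 25834 genes present in all 3 tables, which removes the authors' factor, and the 8 libraries were brought to 1 scale with median-of-ratios factors (0.952 to 1.03). A gene was kept if 4 or more of the 8 libraries had 1 or more scaled CPM, and log2(scaled CPM + 0.5) was tested with limma 3.58.1 (trend and robust, R 4.3.3), two-sided, with Benjamini-Hochberg adjustment over 15331 genes. Within 0.05 reads every value was a whole multiple of its library's step, so whole reads were recovered (in P0 replicate 1 the step was 1.005, close to 1). On those reads edgeR 4.0.16 (quasi-likelihood) called 6107 rises and 5782 falls, and DESeq2 1.42.0 called 5973 and 5937. Of the table columns, 0 were without a sample. The code was tested on simulated data.

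The members and the 38 gene lists were chosen with earlier results of these data known, so lists are described by counts and medians and carry no test of their own. Of 853 listed genes 834 were tested, 14 were too low and 5 had no level in all 3 tables. Of the 834, 20 had under 1 scaled CPM in every P0 library and 10 in every P28 library. These passed the filter through the other age alone, so they had to differ. The rule for named genes took the 8 largest rises and 8 largest falls without overlap and with a mean of at least 5 scaled CPM in the higher age, both genes of each of the 12 pairs, the 4 most significant members of each list, the largest change against a list's majority, the label checks and H2bc21. A few genes and pairs that the rule covers are not reported here. Replicates are separate samples per the labels, and p-values measure only the spread between them. The deposited tables name 19797 of the shared genes and a list of gene names matched by Ensembl identifier another 2565. The coordinates printed are RefSeq's (GRCm38.p6). Replicate numbers do not pair the ages, so no block was used.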

Additional observations from a re-analysis of the deposited data

Results flagged for a closer look

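Some libraries stood apart from the other 3 of their age for single genes. Over the 618 sets of 4 levels behind the genes named above, 44 had a gap to the nearest library, as a share of the whole range (log2 scale), past Dixon's 95% critical value for 4 samples, where chance alone gives about 1 set in 20. P0 replicate 1 was lower than the rest of its age for Dcx at 1674 scaled CPM (others 2034 to 2093), L1cam at 501 (others 605 to 620.0), Cdh2 at 245 (others 356 to 381), Pcdh9 at 84.1 (others 131 to 141), Map1b at 1904 (others 2535 to 2639.5), Syt4 at 455 (others 568 to 573), Grm4 at 7.46 (others 9.89 to 10.2), Chrna7 at 11.2 (others 18.6 to 20.5), Hlf at 16.9 (others 21.6 to 22.4) and Slc2a3 at 89 (others 93.2 to 93.9). P0 replicate 2 was higher than the rest of its age for Zfp831 at 0.502 (others 0.147 to 0.178) and Gria3 at 123 (others 108 to 110.2). P0 replicate 3 was higher than the rest of its age for Htr5a at 10.7 (others 7.7 to 7.96). P0 replicate 3 was lower than the rest of its age for Rheb at 90.7 (others 97.4 to 98.7). P0 replicate 4 was lower than the rest of its age for Igf2bp1 at 17.1 (others 26 to 27.9), Top2a at 40.5 (others 59.4 to 63.9) and Vim at 138 (others 187 to 192). P0 replicate 4 was higher than the rest of its age for Stmn3 at 582 (others 400.1 to 426), Gap43 at 852 (others 661 to 683), Basp1 at 843 (others 622 to 639.9), Slc17a6 at 98.1 (others 67.9 to 72), Rbfox3 at 141 (others 102 to 107), Nrgn at 146 (others 83.1 to 90.2), Calm3 at 901 (others 696 to 716) and Acan at 2.94 (others 1.51 to 1.55). P28 replicate 1 was higher than the rest of its age for Epha10 at 179 (others 128 to 134), Grin2b at 657 (others 516 to 536), Il1rapl1 at 26.1 (others 22.9 to 23.2), Slc12a7 at 2.71 (others 1.48 to 1.64), Nr4a1 at 520.2 (others 329 to 352) and Slc2a1 at 55.2 (others 40.6 to 42.7). P28 replicate 1 was lower than the rest of its age for Scn1a at 246 (others 273 to 279), Chrna7 at 8.28 (others 10.7 to 11.1) and Ptbp2 at 120.2 (others 161 to 169.7). P28 replicate 3 was higher than the rest of its age for Ddx3y at 68 (others 60.5 to 60.8) and Chrna3 at 1.8 (others 1.12 to 1.2). P28 replicate 3 was lower than the rest of its age for Insr at 81.4 (others 83.6 to 84), Tnc at 2.05 (others 3.0 to 3.19), Grin3a at 41.2 (others 43.6 to 43.8), Itpka at 151 (others 185 to 190.3) and Cdkn1c at 2.59 (others 2.9 to 2.93). P28 replicate 4 was higher than the rest of its age for Sox11 at 32.1 (others 26.5 to 26.9), Scn3b at 172 (each of the others at 156) and Dnmt3a at 247 (others 197 to 204).

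Genes listed in a single table were in no comparison, since each age had its own gene list. Of 3691 genes listed at P28 and not at P0, 2 were at 1 CPM or more in all 4 P28 libraries, the higher of them Chrnb3, a nicotinic receptor subunit gene, at 2.87 to 3.20 CPM. Of 760 genes listed at P0 and not at P28, 0 were at that level, and the highest, Fam162b, had a mean of 0.724 CPM. No source used here says if an unlisted gene had no read at the other age or was left out of that table.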

How the results depend on the processing

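The count of 11921 changed genes stayed within 1.5 times under the 27 alternatives except the demand for at least a 2-fold change, which left 5578 (2785 rises and 2793 falls). Leaving out 1 library at a time gave 11538 to 12273 changed genes, with 5743 to 6109 rises and 5787 to 6164 falls. With the replicate block 5765 rose and 5792 fell. Same-numbered libraries of the ages had correlations of −0.24, −0.17, −0.08 and −0.10 in their deviations, so the numbers pair nothing, and the block changed no call among the 309 genes named. For H2bc21 the log2 fold change ran from −0.11 to 0.087 without 1 library, was 0.27 on the deposited values (adjusted p = 0.108) and passed the threshold under 0 of 27 alternatives. Of 309 named genes, 277 kept direction and side of the threshold in all 25 alternatives besides the 2 stricter thresholds. Direction turned on the deposited values alone for Bcan (0.047), Nlgn2 (0.24) and Rheb (0.23), a scaling that moves the median of all genes to 0.26. Calls were lost on the deposited values for Aqp1, Dpysl4, Grm3 and Nr4a3, and with all 12 libraries in the fit for Gad1, Gad2, Gria2 and Chrna7. Of 76 counts of rises or falls in lists, 16 moved by over 1.5 times in an alternative other than the 2-fold demand. On the deposited values falls went from 5 to 3 for GABA receptor genes, 6 to 3 for astrocyte markers, 5 to 2 for postsynaptic scaffolds, 3 to 1 for axon initial segment genes, 2 to 1 for immediate-early genes and 1 to 0 for metabotropic receptors and choroid plexus markers, and rises went from 9 to 14 for cadherins, 0 to 2 for deep-layer factors and 0 to 1 for growth cone genes (also 1 with quantile normalization). The filter at a mean of 5 CPM, which tests fewer genes, took rises from 11 to 6 for microglia markers, 5 to 2 for matrix genes, 4 to 2 for oligodendrocyte precursor markers, 4 to 1 for choroid plexus markers and 1 to 0 for neurogenic factors, and choroid plexus falls from 1 to 0. Rises of inhibitory neuron markers went from 5 to 3 and falls of astrocyte markers from 6 to 3 with all 12 libraries in the fit. An adjusted p under 0.01 left 3 falls of GABA receptor genes, 3 of astrocyte markers and 0 of metabotropic receptors, which had 2 without both merged libraries. The cause was not tested for the others. Genes under about 0.227 CPM rest on 3 reads or fewer, and neither batch nor hour of collection could be set against age.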
